A study of Mus musculus with 2 samples.

Results

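The genes described here encode the enzymes that make heme and a mitochondrial carrier that feeds them. They are Alas1, Alas2, Slc25a38, Alad, Uros, Urod, Cpox, Ppox and Fech, 9 of the 43437 genes in the gene table, chosen by name for their place in the pathway. Earlier results of these data were known when the choice was made. Their isoforms account for 51 of the 103615 rows of the isoform table. Polyadenylated RNA was sequenced from the telencephalon, the front part of the embryonic brain, and from the whole body. Both came from ICR mice, an outbred stock, taken as wild-type fetuses at E12.5; no treatment was given, and each tissue has 1 library. The number and sex of the fetuses are not given in the sources used here, nor whether the whole body included the head, so telencephalon tissue may be part of both libraries.

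Heme is an iron-holding ring that carries oxygen in hemoglobin and electrons in cytochromes. Every cell with mitochondria needs some, and developing red cells, which at this stage circulate from the yolk sac and mature in the fetal liver, need far more. Synthesis starts in mitochondria, where an aminolevulinate synthase joins glycine to succinyl-CoA, continues in the cytosol, and returns to mitochondria for the last steps. The first enzyme exists in a form found in most tissues, encoded by Alas1, and a red cell form, encoded by the X-linked gene Alas2. Slc25a38 encodes the mitochondrial carrier that brings in glycine, and its loss in humans causes an anemia with iron-laden mitochondria. The later enzymes are single genes used by all tissues.

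Red cell genes are known to be switched on by the transcription factor GATA1, which binds GATA words. The words searched were AGATAA and its variant ending in G, which is AGATAG, and the forms with T as the first letter, namely TGATAA and, ending in G, TGATAG. The promoters below show where these words lie in both first-enzyme genes, in Slc25a38, in the member that differed most between the libraries (Cpox), and at the downstream start of Uros. Capitals mark the words on either strand, and each stretch runs from 250 bases before to 50 bases after a RefSeq start site (GRCm38.p6).
Alas2 (chrX:150547167-150547466, plus strand): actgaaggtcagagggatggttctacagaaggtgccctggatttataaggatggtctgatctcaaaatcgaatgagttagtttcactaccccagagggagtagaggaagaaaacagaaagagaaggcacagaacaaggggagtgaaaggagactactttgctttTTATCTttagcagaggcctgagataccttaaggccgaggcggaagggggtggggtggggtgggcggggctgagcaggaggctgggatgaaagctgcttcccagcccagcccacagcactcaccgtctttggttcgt
Alas1, second of its start sites (chr9:106247681-106247980, minus strand): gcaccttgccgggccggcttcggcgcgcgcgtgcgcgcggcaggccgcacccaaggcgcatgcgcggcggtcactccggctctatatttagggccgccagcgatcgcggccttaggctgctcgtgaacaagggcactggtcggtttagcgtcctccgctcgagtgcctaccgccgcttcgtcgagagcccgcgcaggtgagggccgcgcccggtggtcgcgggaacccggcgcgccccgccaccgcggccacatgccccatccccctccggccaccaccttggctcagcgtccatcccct
Slc25a38 (chr9:120110132-120110431, plus strand): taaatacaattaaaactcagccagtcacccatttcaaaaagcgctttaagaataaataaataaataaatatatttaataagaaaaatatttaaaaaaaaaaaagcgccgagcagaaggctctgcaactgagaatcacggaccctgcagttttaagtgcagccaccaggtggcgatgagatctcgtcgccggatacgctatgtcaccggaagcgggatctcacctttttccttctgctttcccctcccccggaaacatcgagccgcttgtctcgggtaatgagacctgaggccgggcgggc
Cpox (chr16:58669958-58670257, plus strand): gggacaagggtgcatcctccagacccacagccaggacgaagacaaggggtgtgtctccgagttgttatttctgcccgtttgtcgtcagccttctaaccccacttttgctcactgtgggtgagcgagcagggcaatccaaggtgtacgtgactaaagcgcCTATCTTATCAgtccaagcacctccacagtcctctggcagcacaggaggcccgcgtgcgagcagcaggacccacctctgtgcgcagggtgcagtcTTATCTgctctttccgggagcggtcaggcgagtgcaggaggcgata
Uros, downstream start site (chr7:133702451-133702750, minus strand): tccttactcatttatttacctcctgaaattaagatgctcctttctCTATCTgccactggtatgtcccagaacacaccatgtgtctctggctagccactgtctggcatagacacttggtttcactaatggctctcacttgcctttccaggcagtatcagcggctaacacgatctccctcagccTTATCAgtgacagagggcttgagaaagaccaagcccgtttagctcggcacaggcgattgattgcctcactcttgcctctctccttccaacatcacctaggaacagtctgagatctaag

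The search covered 11 member promoters from the RefSeq table, of 8 of the 9 genes, with Fech left out. Of these promoters 3 held such a word on either strand, or 27.3%. Among all 32817 promoters of the same length, which were not limited in this way, 29.8% did. The share among members was thus near that of all promoters. All 6 matches lay on the strand opposite to the printed one, so AGATAA reads TTATCT there, and positions count from the start site to the leftmost printed base. Alas2 held AGATAA at -86. Cpox held 3 words, AGATAG at -91 and TGATAA at -86, which overlap by 1 base, and AGATAA at 5. That was the highest count of the 11 member promoters searched. Of all promoters 1.76% held 3 or more, a share for any single promoter and not for the highest of 11. The downstream start of Uros held AGATAG at -205 and TGATAA at -68. No word was found in the windows of Alas1, Slc25a38, Alad, Urod, Ppox or the upstream start of Uros, which says only that these letters are absent from those windows.

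Alas2 messenger RNA also carries an iron-responsive element before its coding part, the hairpin through which iron regulatory proteins hold back its translation when iron is scarce. The stretch is shown because the levels below are RNA levels and do not include this step. It lies in exon 1 of Alas2-201 (plus strand, from the GENCODE M21 transcripts on GRCm38), and capitals mark the bulged C and the loop.
Alas2 iron-responsive element (chrX:150547458-150547485): ttggttCgtcctCAGTGCagggcaacag

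The search, on the sense strand, was for a C, any 5 bases, CAGTGN, and 5 further bases able to pair with the first 5, wobble pairs allowed. Both coding isoforms of Alas2 hold it, upstream of their coding parts. Alas2 was the only member with the word, which 1.30% of 21457 coding genes in the isoform table have in an annotated coding transcript.

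Most heme synthesis genes were lower in telencephalon than in whole body, and by very different amounts. Levels are given in FPKM, fragments scaled to transcript length and to library size. Differences are log2 ratios, telencephalon over whole body, after adding 1 FPKM to each level. All 9 members reached 1 FPKM in at least 1 library. Of them 7 were at least 2-fold lower in telencephalon, none was at least 2-fold higher, and 2, Alas1 and Slc25a38, lay within 2-fold. The same calls held for 21.2% (lower) and 9.39% (higher) of all 14987 genes that reached 1 FPKM in telencephalon or whole body. The members' median log2 ratio was -2.05, beside -0.16 over all these genes. The 7 fell to 6 when the libraries were scaled to a common upper quartile or to TPM, since Uros then stood at -0.93 or, in TPM, just short of 2-fold.

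Because each tissue has 1 library, the values carry no replicate error, no test was run, and they describe these libraries. Intervals below are 95% exact intervals from estimated fragments and cover counting error only. In RNA from mixed tissue, fewer cells of a type and less RNA per cell cannot be told apart. The libraries held about 22700000 and 29450000 fragments in telencephalon and whole body, estimated from the FPKM steps of genes with a single isoform.

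**Figure D1:**
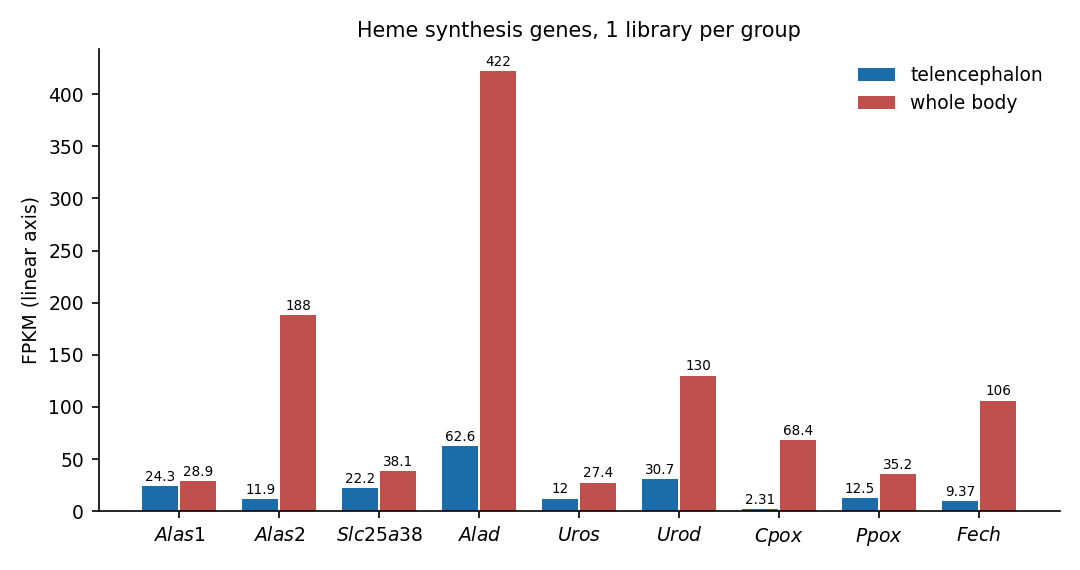
FPKM of each heme synthesis gene (y axis, linear) in telencephalon (blue) and whole body (red), 1 library each, in pathway order. Alas1 stands at 24.3 and 28.9 FPKM, while Alas2 stands at 11.9 and 188 and Cpox at 2.31 and 68.4.

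At the first step, the ubiquitous and the red cell enzyme behaved differently. Alas1 (ENSMUSG00000032786, chromosome 9, 106233455 to 106248654 on GRCm38) had 24.3 FPKM in telencephalon and 28.9 in whole body. That is 83.9% of the whole-body level (76.9 to 91.5), with a log2 ratio of -0.24, and 45.5% of all measured genes had a lower ratio. Alas2 (ENSMUSG00000025270, chromosome X, 150547375 to 150570638) had 11.9 FPKM in telencephalon and 188 in whole body. It was 15.8-fold lower (14.4 to 17.4), with a log2 ratio of -3.87, and only 1.71% of measured genes had a lower one. The log2 ratio of Alas2 minus that of Alas1 was -3.63. At the gene level Alas2 held 32.9% of the summed Alas1 and Alas2 FPKM in telencephalon and 86.6% in whole body. Which synthase led in telencephalon depended on the isoforms counted. With the longest isoform of each gene alone Alas2 held 90.0% in telencephalon and 99.5% in whole body, so it led in both libraries. That setting drops most of Alas1, whose longest isoform, Alas1-207, held 4.14% of its FPKM in telencephalon and 2.07% in whole body. It keeps most of Alas2, whose longest isoform, Alas2-201, held 75.9% and 65.7%.

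The level of Alas1 rests on how reads were divided among its isoforms. A non-coding isoform of 1905 bases (ENSMUST00000134053) took 59.0% of the gene's FPKM in telencephalon and 52.5% in whole body, and Alas1-205, annotated as a target of nonsense-mediated decay, 21.2% and 34.2%. The coding isoforms together had 3.05 FPKM in telencephalon and 1.49 in whole body. With coding isoforms alone the log2 ratio of Alas1 was 0.70, and Alas2 led in both libraries, with 79.6% of the synthase FPKM in telencephalon and 99.2% in whole body. Alas1 shares 9.61% of its exon bases with the antisense gene 4930500F10Rik, and the kit does not mark strand.

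Alas2 signal came almost wholly from its coding isoforms in both libraries. Alas2-201 (2037 bases) had 9.02 FPKM in telencephalon and 123 in whole body, and Alas2-202 (1892 bases), with a shorter exon 3, 2.87 and 58.9. Their shares were 75.9% and 24.1% in telencephalon and 65.7% and 31.4% in whole body, so both isoforms were low in telencephalon. A short isoform with a retained intron, Alas2-203 (485 bases), had no signal in telencephalon, against 5.46 FPKM on about 26 fragments in whole body. With a floor of 3 fragments in telencephalon it was at least 6.61-fold lower, a bound under the 15.8-fold of the gene. Exons of Apex2, on the opposite strand, cover 12.9% of the exon bases of Alas2.

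Slc25a38, the glycine carrier, is grouped with Alas2 as an erythroid gene, and its gene-level difference was far smaller than that of Alas2. Slc25a38 (ENSMUSG00000032519, chromosome 9, 120110374 to 120124504) had 22.2 FPKM in telencephalon and 38.1 in whole body. That is 58.2% (53.1 to 63.9), with a log2 ratio of -0.75, at a difference of -0.51 from Alas1 and 3.12 from Alas2. At the gene level Slc25a38 stood nearer to the ubiquitous synthase than to the red cell one, and 26.7% of measured genes had a lower ratio. With coding isoforms alone its difference from Alas1 was -1.15. Whether the gene is used mainly by red cells was not tested.

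The isoforms of Slc25a38 split by first exon. Isoforms that begin at the upstream exon (starts from 120110374 to 120110424) had 22.2 FPKM in telencephalon and 29.8 in whole body, 74.4% (67.6 to 81.7). The full-length coding isoform among them, Slc25a38-201 (1791 bases), had 21.7 and 24.1 FPKM. The remaining isoforms begin downstream, at 120114850 (Slc25a38-202, coding) and 120114989 (Slc25a38-207, non-coding). These had no fragment in telencephalon and 8.28 FPKM, about 126 fragments, in whole body. With a floor of 3 fragments in telencephalon they were at least 32.3-fold lower. In FPKM they held 52.1% of the gene's difference of 15.9 and 21.7% of its whole-body level. These downstream isoforms are short, at 991 and 492 bases, so FPKM gives each of their fragments more weight than those of Slc25a38-201. The upstream isoforms had about 1133 fragments in whole body. The grouping by first exon was made after these values were seen, and the isoforms share their later exons, so the split depends on the authors' assignment of fragments.

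**Figure D2:**
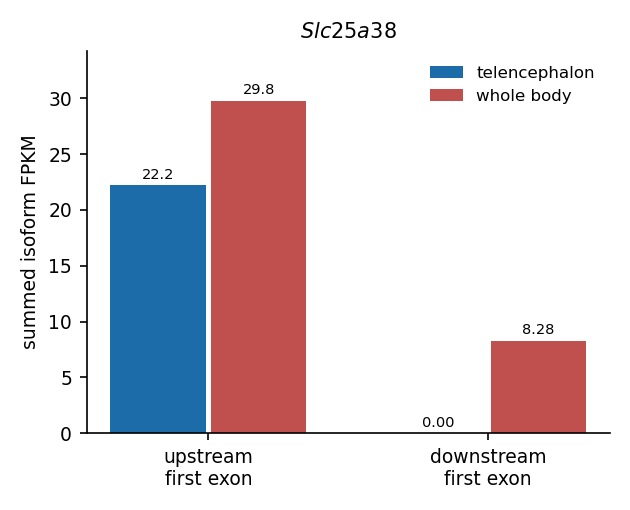
Summed isoform FPKM (y axis) by annotated first exon for Slc25a38 in telencephalon (blue) and whole body (red), 1 library each. The upstream starts have 22.2 FPKM in telencephalon and 29.8 in whole body, and the downstream starts no fragment in telencephalon and 8.28 FPKM in whole body.

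The cytosolic steps lay between the synthases. Alad (ENSMUSG00000028393, chromosome 4, 62509169 to 62519918), whose enzyme joins a pair of aminolevulinate molecules into a pyrrole, was the most abundant member in both libraries. It had 62.6 FPKM in telencephalon and 422 in whole body, 6.74-fold lower (6.36 to 7.15), with a log2 ratio of -2.73. Its 3 isoforms start within the same first-exon region, and Alad-201 held 98.5% of its FPKM in telencephalon and 97.2% in whole body. Uros (ENSMUSG00000030979, chromosome 7, 133686243 to 133710072), which closes the ring, had 12.01 FPKM in telencephalon and 27.41 in whole body, 2.28-fold lower (2.02 to 2.59). Urod (ENSMUSG00000028684, chromosome 4, 116989965 to 116994413), which trims side chains of the ring, had 30.7 and 130 FPKM, 4.25-fold lower (3.92 to 4.61). Uros was the smallest difference among the 7 that passed 2-fold.

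Uros is also known for a red cell start downstream of its general one. The isoform of this table that begins near the downstream RefSeq start, Uros-209 (371 bases), was listed at 0 in both libraries. The main isoform, Uros-204 (1483 bases), begins at the upstream start and had 64.9% of Uros in telencephalon and 64.4% in whole body. No full-length isoform of the downstream start is in the table, so a difference in start use of Uros could not be measured here.

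The last steps, in mitochondria, differed widely among themselves. Cpox (ENSMUSG00000022742, chromosome 16, 58670292 to 58717636), which makes protoporphyrinogen, had 2.31 FPKM in telencephalon and 68.4 in whole body. It was 29.6-fold lower (25.1 to 35.1), with a log2 ratio of -4.39, lower than Alas2, and 1.04% of measured genes had a lower ratio. Ppox (ENSMUSG00000062729, chromosome 1, 171275990 to 171281186), which oxidises the ring to protoporphyrin, had 12.53 and 35.22 FPKM, 2.81-fold lower (2.58 to 3.06). Fech (ENSMUSG00000024588, chromosome 18, 64452914 to 64490251), which inserts iron to finish heme, had 9.37 and 106 FPKM, 11.3-fold lower (10.2 to 12.6). Neighbouring enzymes of the pathway therefore differed by unequal amounts, with Ppox between Cpox and Fech in the chain but far less lowered than either.

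Part of Ppox is uncertain. Its isoform Ppox-207, which retains introns (4411 bases), had 44.5% of Ppox in telencephalon and 21.7% in whole body. The coding isoform Ppox-201 had 6.66 FPKM in telencephalon and 22.0 in whole body. Exons of B4galt3, on the opposite strand, cover 17.5% of the exon bases of Ppox. Cpox and Fech have 1 isoform each in the table, and no exon of another gene of the table overlaps theirs.

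**Figure D3:**
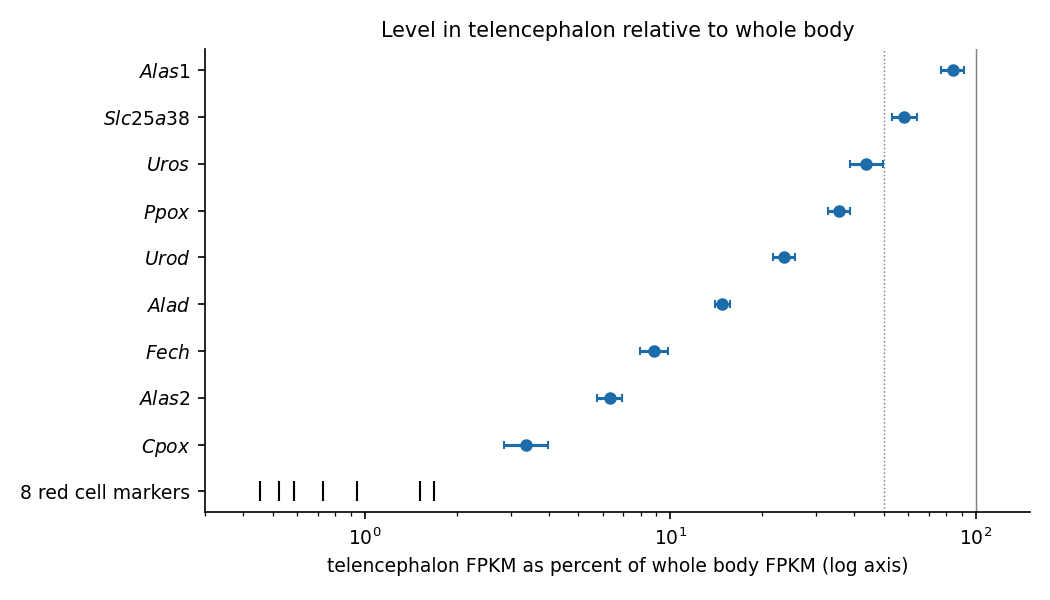
Telencephalon FPKM as percent of whole-body FPKM (x axis, log scale) for each heme synthesis gene (circles) and 8 red cell marker genes (ticks), with bars for the 95% exact counting interval. The solid line marks equal levels and the dotted line 50%. The members run from Cpox at 3.38% to Alas1 at 83.9%, all above the markers.

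In rising order, the telencephalon level as a share of the whole-body level was 3.38% for Cpox, 6.34% for Alas2, 8.83% for Fech and 14.8% for Alad. It was 23.5% for Urod, 35.6% for Ppox, 43.8% for Uros, 58.2% for Slc25a38 and 83.9% for Alas1. Adjacent counting intervals were apart except those of Ppox and Uros, which met at 38.7%. The later-step genes, from Alad to Fech, all fell at least 2-fold, except Uros under the other scalings, and had a median log2 ratio of -2.39, and Alas2 lay at a difference of -1.48 from that median.

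The order of levels also differed between the libraries. In telencephalon Alad was followed by Urod, Alas1 and Slc25a38, then by Ppox, Uros and Alas2 at 12.53, 12.01 and 11.9 FPKM, and by Fech and Cpox. In whole body Alad was followed by Alas2, Urod, Fech and Cpox, then by Slc25a38, Ppox, Alas1 and Uros at 38.1, 35.2, 28.9 and 27.4 FPKM. The counting intervals of Ppox, Uros and Alas2 overlapped in telencephalon, as did those of Alas1 and Slc25a38. In whole body those of Alas1 and Uros overlapped, and so did those of Slc25a38 and Ppox. Summed over the 9 genes, the levels were 188 FPKM in telencephalon and 1044 in whole body, 5.56-fold lower.

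**Figure D4:**
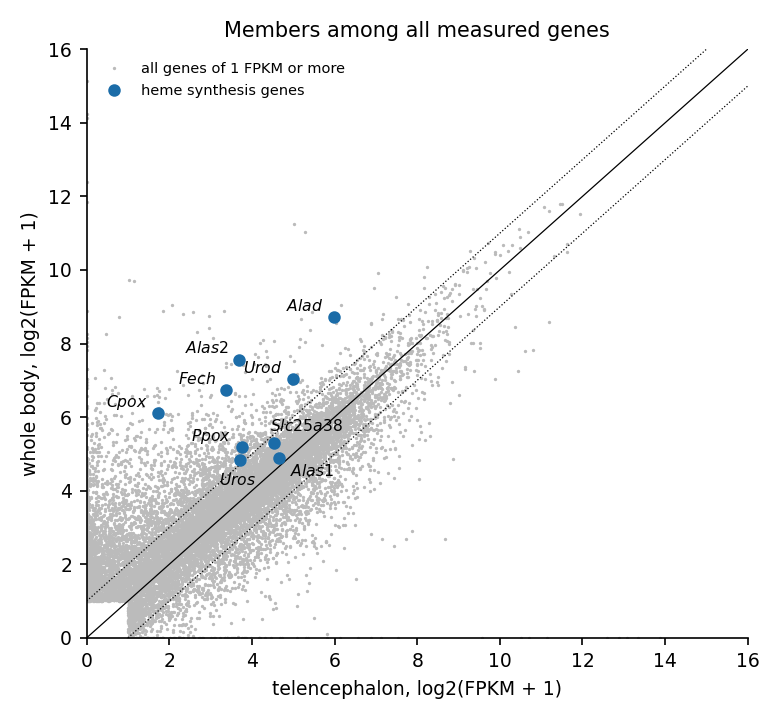
Each of the 14987 measured genes by its level in telencephalon (x axis) and in whole body (y axis), both as log2(FPKM + 1), with the 9 heme synthesis genes in blue. The solid line marks equal levels and the dotted lines 2-fold on this scale. Alas1 and Slc25a38 lie between the dotted lines and the other 7 above the upper one.

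Markers of the tissues were read beside these values. All 8 measured red cell genes were at least 2-fold lower, at 0.455% to 1.68% of the whole-body level, with a summed 7.48 FPKM in telencephalon and 629 in whole body. The largest share was that of Slc4a1, the red cell anion exchanger, at 5.32 and 318 FPKM. None of the 8 was at 0. All 8 genes of hepatoblasts, the fetal liver cells, were lower too, with a summed 10.04 and 2551 FPKM, and Apoa2 and Serpina1a were at 0 in telencephalon. Of 8 telencephalon genes 7 were at least 2-fold higher, with a summed 963 and 53.8 FPKM, and Emx2 was at 4.75 and 1.93. All 4 endothelial genes were lower (summed 19.5 and 78.5 FPKM), as were 2 of 3 macrophage genes (6.98 and 21.4). The third macrophage gene, Aif1, had 1.12 FPKM in telencephalon and 1.47 in whole body, on about 12 and 19 fragments. Over all measured genes, 21.2% were at least 2-fold lower and 9.39% at least 2-fold higher. The part of these cell types in the heme gene differences was not tested.

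Genes related to heme and iron, together with erythroid transcription factor genes, fell into lists that differed from one another. In all, 64 related genes were measured. Of these 27 were past 2-fold, each of them lower in telencephalon, beside 21.2% of all measured genes that were lower. The lists were written with earlier results of these data known, so the comparison is not an independent one. The 27 include 6 of the 7 measured erythroid transcription factor genes. The median log2 ratio of the 64 genes was -0.72, beside -0.16 over all genes. Scaling to a common upper quartile or TPM moves the median of all genes to 0.04 or -0.02 and leaves 23 of the related genes lower. Of all measured genes, 2736 were then lower under the upper quartile and 3594 in TPM, against 3170 in FPKM.

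Iron uptake, storage and export stood with the heme genes: of 10 measured genes 7 passed 2-fold, all lower, and the median was -2.26. Over all measured genes, 21.2% were lower. Ftmt and Hamp were at 0 in both libraries. The mitochondrial iron carriers repeated the pattern of the synthases. Slc25a37 (mitoferrin 1), which red cells depend on, had 3.53 FPKM in telencephalon and 150 in whole body, with a log2 ratio of -5.06. Its relative Slc25a28 (mitoferrin 2), used more widely, had 10.9 and 9.54 FPKM. Steap3, which reduces iron in red cell endosomes, had 0.278 and 35.5 FPKM.

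Of 4 heme breakdown genes 3 were lower (median -1.86), beside 21.2% of all measured genes. The list is short, and no test was run. Blvrb, a biliverdin reductase abundant in red cells, had 10.3 FPKM in telencephalon and 173 in whole body. The inducible heme oxygenase gene Hmox1 had 5.34 and 27.8 FPKM. The constitutive form Hmox2 had 10.04 and 18.74 FPKM, within 2-fold. Of 7 erythroid transcription factor genes 6 were lower (median -4.38). Klf1 had 0.623 and 65.0 FPKM, and Gfi1b 0.0980 and 24.3 on about 3 fragments in telencephalon. Ldb1, a cofactor used in many tissues, had 158 and 118 FPKM.

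Supply and transport genes differed less. Of 9 genes for substrate supply and regulation of the synthases 3 were lower (median -0.69), or 2 under a common upper quartile or TPM. In a list this short those counts are not set apart from the 21.2% of all genes called lower. The plasma membrane glycine transporter gene Slc6a9 had 5.19 FPKM in telencephalon and 36.3 in whole body, and Fam210b, a mitochondrial protein needed for heme synthesis in red cells, 6.14 and 19.0. Sucla2, a subunit of succinyl-CoA synthetase, had 18.1 and 21.5 FPKM. Of 8 porphyrin and heme transport genes 5 were lower (median -1.04), or 3 under either scaling, again in a short list beside that 21.2%. Abcb6 at -1.03 and Slc48a1 at -1.04 were only just past 2-fold. Tspo had 7.38 and 42.8 FPKM and the porphyrin exporter gene Abcg2 8.79 and 34.8, while the heme-binding protein gene Pgrmc1 had 87.6 and 67.8.

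Genes for heme and iron use in all cells lay mostly within 2-fold, and in none of these lists was the share called lower above the 21.2% of all genes. None of 3 genes for heme A and cytochrome c assembly passed it (median -0.07, 0.12 under a common upper quartile and 0.08 in TPM). Cox15 had 7.95 FPKM in telencephalon and 9.83 in whole body, Cox10 11.5 and 12.1, and Hccs 6.79 and 5.65. None of 6 iron regulation genes passed it either (median 0.03). The iron regulatory protein genes Ireb2 and Aco1 had 23.1 and 30.1 FPKM in telencephalon and 20.2 and 27.6 in whole body, and Ncoa4, a receptor for ferritin breakdown, 7.27 and 13.0. Of 11 iron-sulfur cluster genes 2 were lower (median -0.43), or 1 under either scaling. Hscb, a co-chaperone, had 1.97 and 7.71 FPKM, Glrx5 65.1 and 135, and Isca2 19.2 and 15.7. Glrx5 passed 2-fold at a log2 ratio of -1.04. Of 6 heme-regulated genes 1 was lower, Nfe2l2 at 4.001 and 15.19 FPKM (median 0.04, -0.51 with a floor of 5 FPKM). Nr1d2 had 3.56 and 2.07 FPKM and Ppargc1a 2.71 and 2.27.

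**Figure D5:**
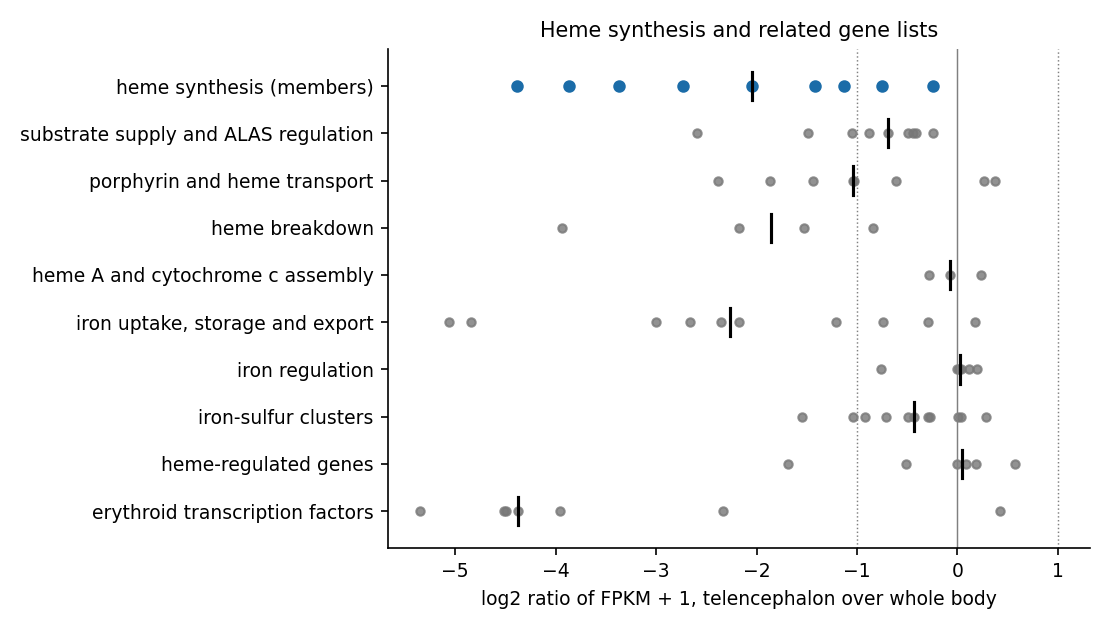
Log2 ratio of FPKM + 1, telencephalon over whole body (x axis), of the 9 heme synthesis genes (blue, top) and of the measured genes of 9 related lists (grey), with the median of each as a black bar. Dotted lines mark 2-fold. The members' median is -2.05, that of iron uptake, storage and export -2.26 and that of iron regulation 0.03.

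The coding genes nearest to Alas2 in level over both libraries, among 13697, included Blvrb. The distance used was that of log2(FPKM + 1) over the 2 libraries, so it compares a pair of levels and no more. The nearest were Rcn3 (12.8 FPKM in telencephalon and 169 in whole body, distance 0.181), Blvrb (distance 0.220), S100a11 (9.29 and 177), Bgn (13.1 and 149) and Itm2a (9.33 and 164). Bgn encodes a matrix proteoglycan and Itm2a a membrane protein. Among those nearest to Slc25a38 were Dap3 (22.3 and 38.5 FPKM, distance 0.0183), Cul4a (21.8 and 36.8), Taf6l (23.1 and 39.2) and Larp1 (22.3 and 40.3).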

How the data were processed

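Polyadenylated RNA from telencephalon and whole body was sequenced with the TruSeq RNA v2 kit, per the labels' protocols; this kit does not mark strand. The authors deposited FPKM per gene and per isoform, made with TopHat, Cufflinks and Cuffdiff on GRCm38, per the submitters' processing notes (versions were not among them). For the annotation release the sources used here give no name. FPKM are not counts, so no count model was run. With 1 library per group there was no test.

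Log2 ratios used a pseudocount of 1 FPKM and understate the difference of low genes. A gene was measured at 1 FPKM or more in either library and called past 2-fold. Coordinates, isoform types and lengths came from GENCODE M21 (GRCm38), and promoters from RefSeq (GRCm38.p6). Of 51 member isoforms all were matched. Fragments were estimated from single-isoform genes, with 335 and 325 bases subtracted from lengths in telencephalon and whole body. Of low values there, 90.2% and 91.6% came out whole within 0.1 fragments, in genes that overlap those of the fit. The fold step was tested on simulated data. Named genes were the members, the 5 nearest to Alas2 and to Slc25a38, and per related list 2 genes at the end its median points to and 1 at the opposite end; some of these are not reported here. Isoforms were grouped where starts lay within 1000 bases, after their values were seen. Members and lists were chosen with earlier results of these data known. Of the list and marker symbols, Abcb10, Flvcr1, Flvcr2, Fdx2, Zfpm1, Epb42, Ahsp and Adgre1 are not analysed here. Alternatives were other pseudocounts, scalings, floors and isoform sets. Python 3.11.15, pandas 2.3.3 and scipy 1.17.1 were used.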

Additional observations from a re-analysis of the deposited data

How the results depend on the processing

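No paired analysis was possible because each group has 1 library, and no library could be left out. The counts of members lower (6 or 7) and higher (0) stayed close to the reported values under the planned pseudocounts, scalings, isoform lengths and floors. The differences of Alas2 from Alas1 and from the later steps did so under the planned pseudocounts, scalings and isoform lengths; floors do not enter them. The members' median was -1.85 after upper-quartile scaling and -1.91 as TPM, since scaling shifts every gene. Over all genes, 2126 were at least 2-fold higher and 3594 at least 2-fold lower in TPM, against 1408 and 3170 in FPKM. The FPKM summed to 447888 in telencephalon and 502131 in whole body, so TPM raised the levels of both libraries. The pseudocount and floor stayed at 1, and the part of this in the counts was not tested. With a floor of 5 FPKM, where fewer genes count, 2065 were at least 2-fold lower. With the longest isoform of each gene alone, Alas2 held 90.0% of the synthase FPKM in telencephalon and 99.5% in whole body. The lead of Alas1 in telencephalon was then lost, but its longest isoform held only 4.14% and 2.07% of its FPKM. With protein-coding isoforms only, an alternative chosen after seeing the data, Alas2 held 79.6% and 99.2%. The log2 ratio of Alas2 then lay at -4.53 and that of Slc25a38 at -1.15 relative to Alas1. Alas1 has few fragments in coding isoforms, so these values rest on the division of its reads among isoforms. Alas1, which was within 2-fold, then turned from negative to 0.70. Of the other recomputed values 166 stayed close and 46 moved, and no called value reversed. Depth limits the isoforms with few fragments and the low end of Cpox.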
